A study of Mus musculus with 16 samples.

Results

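Mitogen-activated protein kinase (MAPK) cascade kinases and dual-specificity phosphatases (DUSPs) were taken from the annotation deposited with the counts as all protein-coding genes whose symbol is Mapk, Map2k, Map3k, Map4k, Mapkapk or Dusp followed by a number. The rule found 70 of the 54532 annotated genes. They were 13 MAP kinases, 7 MAP2Ks, 18 MAP3Ks, 5 MAP4Ks, 3 MAPK-activated protein kinases and 24 DUSPs. Kinases that lie in the same cascades under other names, such as the RAF kinases, were counted with a separate pathway list. Of the 70 genes, 66 had enough reads to be tested in at least 1 of the 3 comparisons of the diseased group, and Dusp9, Dusp13, Dusp21 and Map3k21 were tested in none.

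The RNA came from aortas of adult male C57BL/6J mice, with 1 library per mouse and 4 mice in each of 4 groups. All mice of 3 groups underwent a staged removal of most of the kidney mass (5/6 Nx), a model of chronic kidney disease, and those of the fourth group had sham surgery. For 30 days the Sham and 5/6 Nx-HPi-Lp mice received the same food, with 2% inorganic phosphorus and 2.5% protein, the diet under which the nephrectomized mice are a model of arterial calcification. The 5/6 Nx-HPi-Hp mice received 2% phosphorus with 18% protein, and the 5/6 Nx-LPi-Lp mice 0.3% phosphorus with 2.5% protein. The diet therefore differs between the nephrectomized groups, surgery alone separates 5/6 Nx-HPi-Lp from Sham, and both surgery and diet separate the other nephrectomized groups from Sham.

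A MAPK cascade passes a signal by phosphorylation from MAP4Ks and MAP3Ks to MAP2Ks and from these to a MAP kinase. The ERK branch is driven mainly by growth factors and the JNK and p38 branches mainly by stress and cytokines, and in arteries all of them take part in smooth muscle growth, migration and change of phenotype. DUSPs of the MAP kinase phosphatase (MKP) class remove the phosphate from both the threonine and the tyrosine of the activation loop and so switch MAP kinases off, and several of them are themselves transcribed in response to MAPK signals. The libraries measure mRNA, so neither kinase activity nor phosphorylation was observed.

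Sham libraries held 20795568 to 24204348 counts, 5/6 Nx-HPi-Lp libraries 15013203 to 57276915, 5/6 Nx-HPi-Hp libraries 13659525 to 18186113 and 5/6 Nx-LPi-Lp libraries 13738098 to 21547424, of which the 70 genes took 0.246% to 0.309%. Mitochondrially encoded genes took 4.18% to 6.34% of the counts in Sham, against 19.3% to 27.1%, 9.502% to 29.0% and 14.2% to 21.1% in the nephrectomized groups. The 8 smooth muscle markers summed to 21963 to 26082 counts scaled to library size (CPM) in Sham, 2268 to 5134 in 5/6 Nx-HPi-Lp, 6680.4 to 23531 in 5/6 Nx-HPi-Hp and 7783 to 17999 in 5/6 Nx-LPi-Lp, with none at 0, and all 8 were lower in 5/6 Nx-HPi-Lp than in Sham. The 8 macrophage markers summed to 229 to 351, 739.6 to 2586, 327 to 655 and 228 to 383 CPM in the same order, and 8, 2 and 0 of them were called higher than in Sham in 5/6 Nx-HPi-Lp, 5/6 Nx-HPi-Hp and, last, 5/6 Nx-LPi-Lp. Of the 6 adipocyte, 6 mast cell and 6 Schwann cell markers, 5, 5 and 5 were called higher than in Sham in 5/6 Nx-HPi-Lp, and of the 8 fibroblast markers 3. The Schwann cell markers summed to 226 to 237 CPM in Sham and to 769, 187, 235 and 315 in 5/6 Nx-HPi-Lp replicates 1 to 4. Of 8 endothelial markers 3 were called higher than in Sham, and of 8 T cell markers 4 were called lower. The 8 sympathetic neuron markers summed to 1150.0 and 930.1 CPM in 5/6 Nx-HPi-Lp replicates 1 and 4, to 40.0 and 222 in replicates 2 and 3 and to 8.99 to 176 in the other 12 libraries. The 4 kidney tubule markers summed to 0 to 3.23 CPM over all libraries, with Umod and Slc34a1 at 0 throughout. In RNA from a whole aorta, fewer cells of a type and less RNA per cell cannot be told apart, and the part of these shifts in the values below was not tested unless stated.

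Nephrectomized mice fed high phosphorus and low protein differed from Sham mice on the same food in genes of every level of the cascade. The p38 kinase gene Mapk11, the atypical MAPK gene Mapk6, the MAP4K genes Map4k4 and Map4k1 and the phosphatase genes Dusp18, Dusp4 and Dusp6 were among those higher, and the MAP3K gene Map3k20 and the JNK/p38 phosphatase gene Dusp8 among those lower. A gene was called where edgeR's quasi-likelihood test gave a Benjamini-Hochberg adjusted p of at most 0.05 over all genes tested and the fold change was at least 2. Of 64 tested, 15 (23.4%) were called higher and 4 (6.25%) lower, against 15.0% and 7.18% of all 16513 genes tested. Of the 15, 2 (Mapk4 and Map3k9) passed the filter on low counts only through the group where they were high. By adjusted p alone, whatever the fold, 23 were higher and 18 lower (35.9% and 28.1%, against 22.7% and 20.2%). The median log2 fold change of the 64 was 0.11, over a range of -1.99 to 3.44, and that of all genes was -0.003. The values of all 4 libraries lay above all 4 Sham values for 19 genes and below them for 19 (29.7% each, against 18.8% and 24.2% of all genes).

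By role, the counts of genes called higher and lower than in Sham were 3 and 0 of 11 MAP kinases tested, 0 and 1 of 7 MAP2Ks, 1 and 0 of 3 MAPK-activated kinases, 3 and 1 of 17 MAP3Ks, 2 and 0 of 5 MAP4Ks and 6 and 2 of 21 DUSPs. In the ERK branch, Mapk3, Map2k1 and Map2k2 did not pass the test in either direction. In the JNK branch, 1 of 3 tested passed by adjusted p and 0 of 3 were called. In the p38 branch, 2 of 8 were called higher and 1 lower, and 4 and 1 passed by adjusted p alone. Over all genes tested, 15.0% were called higher and 7.18% lower, and 22.7% and 20.2% passed by adjusted p alone. The counts by role and branch are small and were not tested against these shares.

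The other comparisons of 5/6 Nx-HPi-Lp are with nephrectomized mice on other diets. Against mice fed the same phosphorus with 18% protein, Mapk11, Map4k4, Mapk6, Dusp6 and Dusp18 were higher and Dusp8, Map4k2, Map3k20, Dusp1 and Map3k10 lower in 5/6 Nx-HPi-Lp. These were 5 higher and 5 lower of 64 tested (7.81% each), against 5.01% and 3.11% of all 16198 genes tested. By adjusted p alone 6 were higher and 7 lower (9.38% and 10.9%, against 7.09% and 5.95%), and the median log2 fold change of the 64 was 0.04. The count of 5 lower fell to 0 without 5/6 Nx-HPi-Lp replicate 4, to 1 without 5/6 Nx-HPi-Lp replicate 2 or 5/6 Nx-HPi-Hp replicate 2 and to 3 without 5/6 Nx-HPi-Lp replicate 1 or 5/6 Nx-HPi-Hp replicate 4, and was 2 with scaling to total counts. The count of 5 higher fell to 3 without 5/6 Nx-HPi-Hp replicate 2 or 4. Over all genes, the full fit called 811 higher and 504 lower. Calls in either direction were 638 without 5/6 Nx-HPi-Lp replicate 4, 906 without its replicate 2 and 682 without 5/6 Nx-HPi-Hp replicate 2. They were 1558 without 5/6 Nx-HPi-Lp replicate 1, 1337 without 5/6 Nx-HPi-Hp replicate 4 and 1201 with scaling to total counts.

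Against mice fed low phosphorus with the same 2.5% protein, Mapk11, Dusp2, Mapk6 and Map4k4 were higher and Map3k20 was lower in 5/6 Nx-HPi-Lp. These were 4 (6.15%) and 1 (1.54%) of 65 tested, under the 7.90% and 3.98% of all 16253 genes tested. By adjusted p alone 6 were higher and 5 lower (9.23% and 7.69%, against 11.1% and 8.96%), and the median log2 fold change of the 65 was 0.03. The count of 1 lower became 2 without 5/6 Nx-HPi-Lp replicate 1 or 3 or 5/6 Nx-LPi-Lp replicate 1. Over all genes, 2085, 1853 and 1529 were then called in either direction, against 1284 higher and 647 lower in the full fit.

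**Figure D1:**
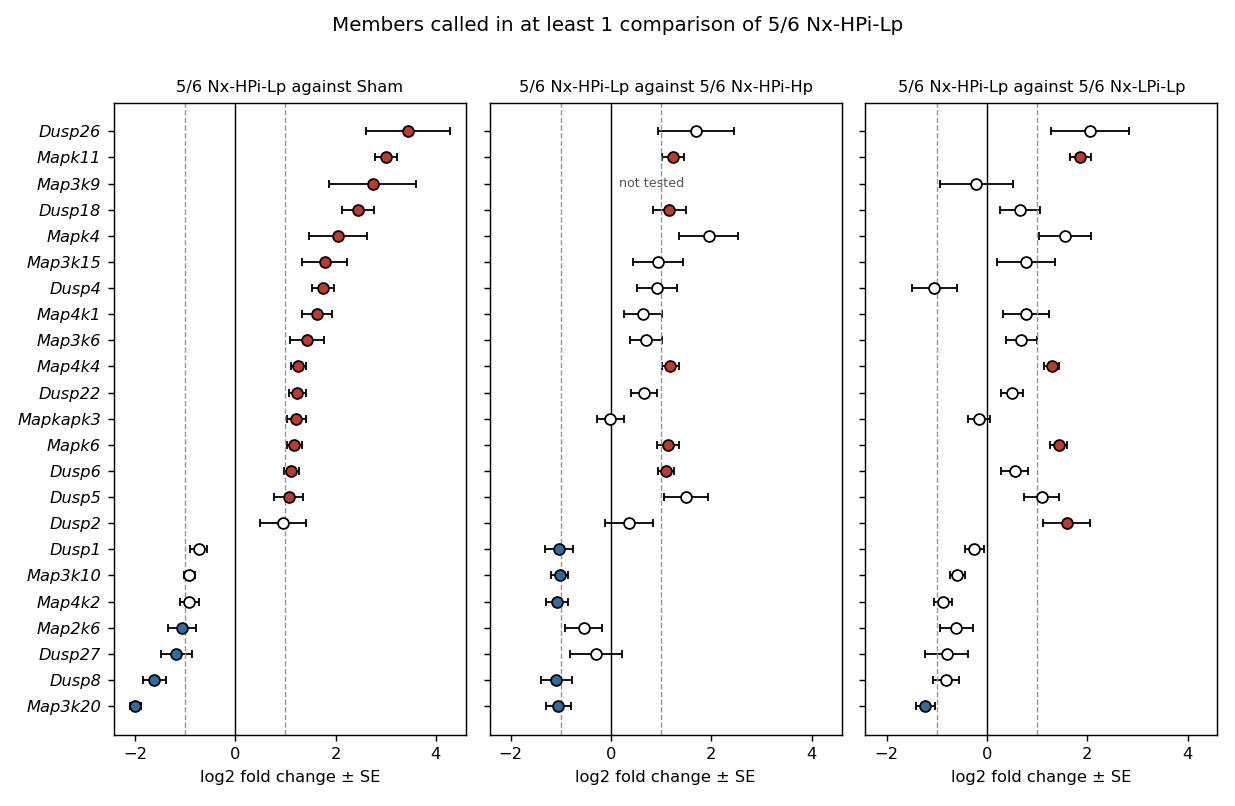
Log2 fold change (x axis) of the 23 genes called in at least 1 of the 3 comparisons of 5/6 Nx-HPi-Lp (y axis), with bars for the standard error, filled points for called genes and open points for genes not called. Mapk11, Mapk6 and Map4k4 lie right of the dashed 2-fold line and Map3k20 left of it in all 3 comparisons.

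Across the 3 comparisons, 23 genes were called in at least 1 (34.8% of the 66 tested in at least 1, against 25.3% of all 17007 so tested) and 7 in at least 2 (10.8% of the 65 tested in at least 2, against 10.7% of all 16281), and 0 were called in opposite directions. The 3 comparisons share the 5/6 Nx-HPi-Lp libraries. Of the 62 genes tested in all 3, Mapk11, Mapk6 and Map4k4 were called higher in each (4.84%, against 3.96% of the 15676 genes so tested) and Map3k20 was called lower in each (1.61%, against 1.57%).

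Mapk11 encodes p38 beta, Mapk6 the atypical kinase ERK3, Map4k4 a Ste20-type kinase upstream of JNK also called HGK, and Map3k20 the stress kinase ZAK. In mm10 (GRCm38) coordinates, Mapk11 (ENSMUSG00000053137) lies at chr15:89142486-89149628 on the minus strand, Mapk6 (ENSMUSG00000042688) at chr9:75369062-75410005 on the minus strand, Map4k4 (ENSMUSG00000026074) at chr1:39900913-40026310 on the plus strand and Map3k20 (ENSMUSG00000004085) at chr2:72285637-72442610 on the plus strand. Each value is for a whole gene, over all annotated exons. The DNA just before the start of 3 of the 4 is shown because these genes moved in all 3 comparisons, and it is taken from RefSeq (GRCm38.p6), 5′ to 3′ on the strand of the gene. The windows are chr15:89149629-89149856 (minus strand) for Mapk11, chr9:75410017-75410266 (minus strand) for Mapk6 and chr2:72285387-72285636 (plus strand) for Map3k20. Capitals mark GC boxes (GGGCGG on either strand), the binding motif of SP1-type factors.
Mapk11: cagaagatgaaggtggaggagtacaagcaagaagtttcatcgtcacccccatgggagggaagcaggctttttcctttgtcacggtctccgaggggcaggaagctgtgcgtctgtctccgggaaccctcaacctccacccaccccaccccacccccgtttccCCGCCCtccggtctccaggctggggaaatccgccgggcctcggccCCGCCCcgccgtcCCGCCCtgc
Mapk6: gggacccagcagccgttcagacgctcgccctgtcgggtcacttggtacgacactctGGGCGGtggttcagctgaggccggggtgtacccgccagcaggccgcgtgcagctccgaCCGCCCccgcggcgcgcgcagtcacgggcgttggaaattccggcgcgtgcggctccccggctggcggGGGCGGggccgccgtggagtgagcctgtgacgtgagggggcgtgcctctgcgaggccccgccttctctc
Map3k20: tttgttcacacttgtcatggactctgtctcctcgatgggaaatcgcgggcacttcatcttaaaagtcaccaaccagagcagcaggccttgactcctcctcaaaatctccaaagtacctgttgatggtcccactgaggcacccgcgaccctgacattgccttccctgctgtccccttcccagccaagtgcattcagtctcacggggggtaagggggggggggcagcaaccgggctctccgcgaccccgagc

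Mapk11 and Mapk6 each hold 3 GC boxes in these windows and Map3k20 holds 0. The 250 bases before a RefSeq start were available for 55 of the 70 genes, taken at the start nearest to that of the deposited annotation. The 2 starts lay 97623 bases apart for Map3k13, 21079 for Dusp10, 2559 for Dusp13 and 2222 for Dusp3. They lay 904 bases apart for Dusp14, 559 for Dusp8 and at most 140 for the others. For the genes named here the window of 250 bases is not the DNA just before the deposited start. In these windows, 1 per gene, the GC box was found for 35 genes (63.64%, against 32.74% of all 32851 promoters of that length). The TATA box (TATAAA) was found for 0 (0%, against 12.37%). The shares over all promoters, here and in the next sentence, count every promoter without choosing 1 per gene, so the 2 sets are not alike. How far that moves the shares was not tested. A cyclic AMP response element (CRE, TGACGTCA) was found before 3 genes, Dusp1, Dusp8 and Mapk10 (5.455%, against 1.546%), an AP-1 site (TGANTCA) before 3 (5.455%, against 6.749%), an NF-kB site before 3 (5.455%, against 3.899%) and a CArG box, the motif of serum response factor, before 1 (1.818%, against 1.467%). The windows of Dusp8 (CRE) and Dusp13 (AP-1 site) are among those not before the deposited start. Both strands were searched. A match to a motif describes the letters only.

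Of the MAP kinases tested against Sham, Mapk11 of the p38 branch had the largest fold change. Mapk11 measured 2.97, 2.40, 2.35 and 3.76 CPM in the Sham libraries, 21.6, 22.3, 17.3 and 28.1 in 5/6 Nx-HPi-Lp, 9.25, 10.1, 11.3 and 7.22 in 5/6 Nx-HPi-Hp and 5.90, 7.03, 4.52 and 7.19 in 5/6 Nx-LPi-Lp. All 4 values of 5/6 Nx-HPi-Lp were above all 12 others, and all values of the other nephrectomized groups were above all Sham values. It was higher in 5/6 Nx-HPi-Lp than in Sham (log2 fold change 3.00, SE 0.22, adjusted p = 2.01e-05), than in 5/6 Nx-HPi-Hp (log2 fold change 1.24, SE 0.22, adjusted p = 0.00866) and than in 5/6 Nx-LPi-Lp (log2 fold change 1.86, SE 0.21, adjusted p = 0.00140).

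Mapk14 encodes p38 alpha, the widely expressed form, and was the p38 gene with the highest FPKM (fragments scaled by gene length and library size, the unit in which genes can be compared) in Sham. It measured 19.7, 18.5, 18.4 and 18.5 FPKM in Sham, 20.2, 18.0, 18.5 and 18.0 in 5/6 Nx-HPi-Lp, 24.3, 25.8, 25.0 and 23.2 in 5/6 Nx-HPi-Hp and 26.9, 17.6, 25.2 and 22.0 in 5/6 Nx-LPi-Lp. Values of Sham and 5/6 Nx-HPi-Lp overlapped (log2 fold change -0.038, SE 0.086, adjusted p = 0.749), and the differences from 5/6 Nx-HPi-Hp (log2 fold change -0.40, adjusted p = 0.0639) and 5/6 Nx-LPi-Lp (log2 fold change -0.30, adjusted p = 0.172) did not pass the test.

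Mapk12, which encodes p38 gamma, best known from muscle, varied widely between libraries. Its FPKM values were 10.6, 7.74, 10.97 and 14.02 in Sham, 21.3, 13.8, 13.6 and 17.3 in 5/6 Nx-HPi-Lp, 28.7, 52.8, 46.8 and 15.4 in 5/6 Nx-HPi-Hp and 21.7, 30.4, 14.3 and 23.0 in 5/6 Nx-LPi-Lp. The highest values belonged to 5/6 Nx-HPi-Hp replicates 2 and 3, and the 5/6 Nx-HPi-Lp values overlapped those of Sham, with a rise under 2-fold that passed by adjusted p (log2 fold change 0.58, SE 0.20, adjusted p = 0.0412). The differences from 5/6 Nx-HPi-Hp (log2 fold change -1.12, adjusted p = 0.0561) and 5/6 Nx-LPi-Lp (log2 fold change -0.44, adjusted p = 0.196) did not pass. The 6 skeletal muscle markers summed to 9.29 to 75.4 CPM in Sham, 5.17 to 13.8 in 5/6 Nx-HPi-Lp, 9.51 to 28.9 in 5/6 Nx-HPi-Hp and 8.01 to 381 in 5/6 Nx-LPi-Lp. The 5 cardiac muscle markers summed to 21.9 to 86.5 CPM in Sham, 32.5 to 143 in 5/6 Nx-HPi-Lp, 38.6 to 856 in 5/6 Nx-HPi-Hp and 28.5 to 8036 in 5/6 Nx-LPi-Lp. Their highest sum was in 5/6 Nx-LPi-Lp replicate 2, which also had the highest Mapk12 of its group, whereas in 5/6 Nx-HPi-Hp replicate 3, with the second highest Mapk12 of its group, they summed to 63.0 CPM. The part of these markers in the Mapk12 values was not tested.

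Mapk13 encodes p38 delta and was at 0.571 to 2.15 FPKM. It measured 0.945, 0.571, 0.888 and 0.717 FPKM in Sham, 1.17, 1.77, 1.66 and 1.25 in 5/6 Nx-HPi-Lp, 1.46, 2.05, 1.78 and 0.960 in 5/6 Nx-HPi-Hp and 1.01, 2.15, 0.795 and 1.22 in 5/6 Nx-LPi-Lp. The 5/6 Nx-HPi-Lp values were all above those of Sham, by under 2-fold (log2 fold change 0.88, SE 0.27, adjusted p = 0.0249), and overlapped those of the other nephrectomized groups (log2 fold change -0.083, adjusted p = 0.886 and log2 fold change 0.19, adjusted p = 0.746).

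**Figure D2:**
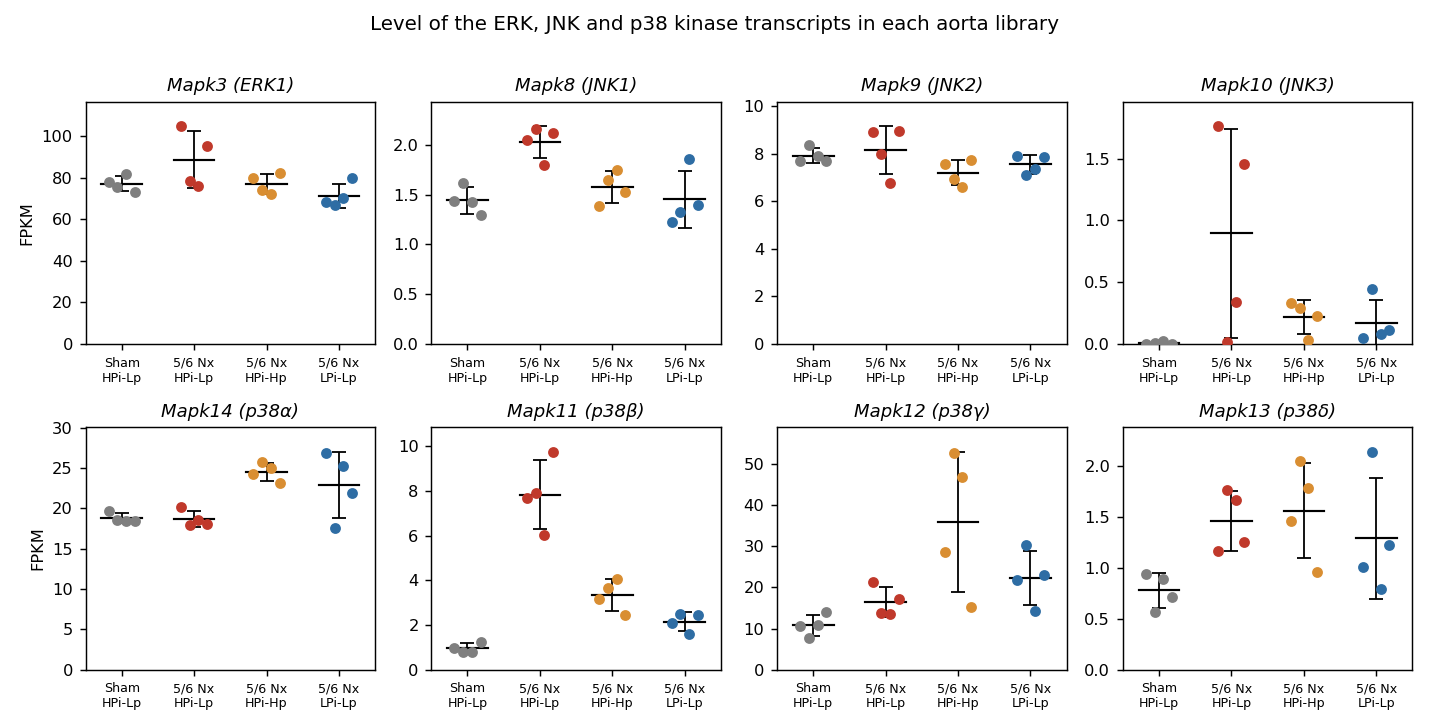
FPKM (y axis) of 8 ERK, JNK and p38 kinase genes in each of the 4 groups (x axis), with a point per library and a line and bar for the mean ± SD. Mapk11 rises from 0.775 to 1.26 FPKM in Sham to 6.01 to 9.76 in 5/6 Nx-HPi-Lp, while Mapk3, Mapk9 and Mapk14 overlap between these groups.

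Within the summed FPKM of the 4 p38 genes, Mapk11 took 3.02% ± 0.483 (SD, n = 4) in Sham and 17.6% ± 2.95 in 5/6 Nx-HPi-Lp, where its share ran from 15.1% to 21.1%. The share was 5.22% ± 0.636 in 5/6 Nx-HPi-Hp and 4.40% ± 0.587 in 5/6 Nx-LPi-Lp. That of Mapk14 was 60.3% ± 5.55 in Sham, 42.2% ± 3.43 in 5/6 Nx-HPi-Lp, 40.1% ± 11.4 in 5/6 Nx-HPi-Hp and 47.7% ± 11.4 in 5/6 Nx-LPi-Lp. Mapk12 took 34.2% ± 5.27, 36.8% ± 4.08, 52.3% ± 11.9 and 45.3% ± 9.96 in the same order. The p38 sum was 31.4 ± 2.84 FPKM in Sham, 44.5 ± 4.76 in 5/6 Nx-HPi-Lp, 65.4 ± 19.3 in 5/6 Nx-HPi-Hp and 48.7 ± 4.87 in 5/6 Nx-LPi-Lp. The mean FPKM of Mapk11 was below that of Mapk14 and Mapk12 in every group.

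The p38 activators Map2k3 (MKK3) and Map2k6 (MKK6) and the p38-activated kinases Mapkapk2 and Mapkapk3 gave 1 call lower and 1 higher. Map2k6 measured 5.70, 6.29, 6.09 and 5.50 CPM in Sham and 3.78, 2.15, 1.81 and 3.23 in 5/6 Nx-HPi-Lp, without overlap, and was called lower (log2 fold change -1.07, SE 0.28, adjusted p = 0.0127). Its fold fell just under 2 without 5/6 Nx-HPi-Lp replicates 2 or 3 (log2 fold change -0.96 to -0.89, adjusted p 0.0247 to 0.0253). Mapkapk3, whose product acts on RNA-binding proteins that control cytokine mRNAs, measured 9.79, 11.8, 14.3 and 12.2 CPM in Sham and 22.5, 34.5, 21.0 and 29.7 in 5/6 Nx-HPi-Lp, again without overlap, and was called higher (log2 fold change 1.22, SE 0.19, adjusted p = 0.000687). Map2k3 and Mapkapk2 did not pass the test in any of the 3 comparisons.

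**Figure D3:**
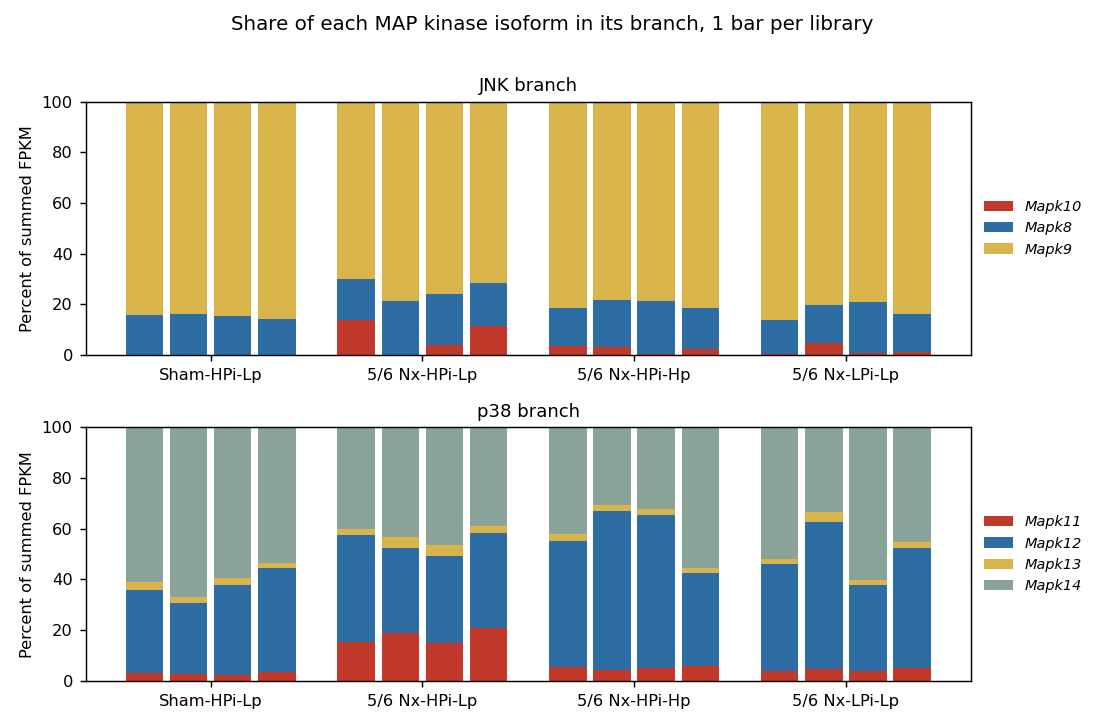
Share (y axis, %) of each gene in the summed FPKM of its branch, as a stacked bar per library (x axis, 16 libraries in 4 groups), for JNK and p38. The Mapk11 band widens to 15.1% to 21.1% of the p38 sum in 5/6 Nx-HPi-Lp, and the Mapk10 band is visible mainly in replicates 1 and 4 of that group.

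In the ERK branch, Mapk3 (ERK1) measured 78.2, 75.7, 81.7 and 73.4 FPKM in Sham, 105, 78.5, 76.4 and 95.4 in 5/6 Nx-HPi-Lp, 80.1, 74.3, 72.2 and 82.5 in 5/6 Nx-HPi-Hp and 68.3, 67.2, 70.1 and 79.8 in 5/6 Nx-LPi-Lp. The groups overlapped, and 5/6 Nx-HPi-Lp did not pass the test against Sham (log2 fold change 0.17, SE 0.12, adjusted p = 0.290), 5/6 Nx-HPi-Hp (log2 fold change 0.20, adjusted p = 0.432) or 5/6 Nx-LPi-Lp (log2 fold change 0.31, adjusted p = 0.145).

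Among the upstream kinases, Map2k2 (MEK2) was lower than in 5/6 Nx-HPi-Hp by under 2-fold (log2 fold change -0.59, SE 0.14, adjusted p = 0.0238), with 119, 138, 129 and 119 CPM against 180.3, 192, 197 and 191 and no overlap. In the ERK5 branch, which responds to shear stress in endothelium, Mapk7 (ERK5) was lower than in Sham (log2 fold change -0.45, adjusted p = 0.00777) and 5/6 Nx-HPi-Hp (log2 fold change -0.59, adjusted p = 0.0361) and its activator Map2k5 higher than in Sham (log2 fold change 0.39, adjusted p = 0.0230), all under 2-fold.

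The JNK genes were expressed at lower FPKM than Mapk3. Mapk9 (JNK2) measured 7.69, 8.38, 7.90 and 7.71 FPKM in Sham, 8.90, 7.99, 6.78 and 8.95 in 5/6 Nx-HPi-Lp, 7.57, 6.92, 6.60 and 7.75 in 5/6 Nx-HPi-Hp and 7.92, 7.09, 7.36 and 7.84 in 5/6 Nx-LPi-Lp. These values overlapped throughout, with log2 fold changes of 0.012, 0.18 and 0.11 (adjusted p = 0.942, 0.437 and 0.562) against Sham, against 5/6 Nx-HPi-Hp and against 5/6 Nx-LPi-Lp. Mapk8 (JNK1) measured 1.43, 1.61, 1.43 and 1.29 FPKM in Sham, 2.05, 2.15, 1.80 and 2.12 in 5/6 Nx-HPi-Lp, 1.38, 1.65, 1.75 and 1.53 in 5/6 Nx-HPi-Hp and 1.22, 1.33, 1.86 and 1.40 in 5/6 Nx-LPi-Lp. The 5/6 Nx-HPi-Lp values were all above the Sham values, by under 2-fold (log2 fold change 0.46, SE 0.11, adjusted p = 0.00923), and the differences from 5/6 Nx-HPi-Hp (log2 fold change 0.37, adjusted p = 0.126) and 5/6 Nx-LPi-Lp (log2 fold change 0.48, adjusted p = 0.0619) did not pass.

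Mapk10 (JNK3), a form found mainly in neurons, measured 0.0385, 0.0874, 0.271 and 0 CPM in Sham, 19.2, 0.192, 3.80 and 16.1 in 5/6 Nx-HPi-Lp, 3.71, 3.10, 0.300 and 2.57 in 5/6 Nx-HPi-Hp and 0.542, 4.83, 0.874 and 1.29 in 5/6 Nx-LPi-Lp. The highest values were those of 5/6 Nx-HPi-Lp replicates 1 and 4, the same libraries in which the sympathetic neuron markers summed to 1150.0 and 930.1 CPM, while replicate 2 was below all libraries of the other nephrectomized groups. With 1, 2, 6 and 0 reads in the Sham libraries and 304, 11, 172 and 250 in 5/6 Nx-HPi-Lp, the gene did not pass the filter on low counts for the comparison with Sham. The differences from 5/6 Nx-HPi-Hp (log2 fold change 2.01, SE 1.06, adjusted p = 0.225) and 5/6 Nx-LPi-Lp (log2 fold change 2.36, SE 1.12, adjusted p = 0.160) did not pass the test, and the first turned to -0.29 without both neuron-rich libraries. Leaving those out, here and below, keeps only replicates 2 and 3 of 5/6 Nx-HPi-Lp. No other pair of libraries was left out, so a call lost there is not a test of neuron content. Replicates 1 and 4 also held the fewest counts of the group, 15665005 and 15013203, against 57276915 and 46499243 in replicates 2 and 3. Neuron marker RNA and depth therefore split these libraries in the same way. The share of Mapk10 in the JNK sum in 5/6 Nx-HPi-Lp ran from 0.174% to 13.9%. Map2k4 (MKK4), which activates JNK and p38, was higher by under 2-fold in all 3 comparisons, with log2 fold changes of 0.33, 0.65 and 0.36 (adjusted p = 0.0144, 0.0124 and 0.0363). The JNK activator Map2k7 did not pass in any of them, and 35.2% of its exon bases overlap another gene on the same strand.

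Among the atypical MAP kinases, Mapk6 was higher in 5/6 Nx-HPi-Lp than in every other group. It measured 22.2, 28.0, 19.6 and 23.4 CPM in Sham, 41.0, 59.9, 48.0 and 54.4 in 5/6 Nx-HPi-Lp, 22.3, 14.4, 29.5 and 26.8 in 5/6 Nx-HPi-Hp and 17.9, 15.6, 21.8 and 20.4 in 5/6 Nx-LPi-Lp. The 4 values of 5/6 Nx-HPi-Lp lay above the other 12, which overlapped each other. The log2 fold changes were 1.18 against Sham (adjusted p = 0.000234), 1.14 against 5/6 Nx-HPi-Hp (adjusted p = 0.0133) and 1.43 against 5/6 Nx-LPi-Lp (adjusted p = 0.00144). Against 5/6 Nx-HPi-Hp the fold was under 2 without 5/6 Nx-HPi-Hp replicate 2 (log2 fold change 0.95, adjusted p = 0.0292). Mapk4, which encodes the related kinase ERK4, measured 1.43, 0.874, 1.04 and 0.395 CPM in Sham and 6.998, 1.501, 2.03 and 4.58 in 5/6 Nx-HPi-Lp and was called higher (log2 fold change 2.05, SE 0.58, adjusted p = 0.0168). In Sham 3 of 4 libraries were over the filter on low counts. The call was lost without Sham replicate 2 (log2 fold change 2.00, adjusted p = 0.0515) and without both neuron-rich libraries (log2 fold change 0.98, adjusted p = 0.160). No fold change of Mapk4 against the other nephrectomized groups passed.

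Among the MAP4Ks, Map4k4 was called higher in all 3 comparisons. It measured 101, 99.6, 74.6 and 87.5 CPM in Sham, 169, 249, 199.99 and 222 in 5/6 Nx-HPi-Lp, 84.9, 97.1, 91.4 and 97.5 in 5/6 Nx-HPi-Hp and 89.4, 85.5, 80.4 and 89.3 in 5/6 Nx-LPi-Lp. All values of 5/6 Nx-HPi-Lp were above all others, and the other groups overlapped. It was higher than in Sham (log2 fold change 1.26, SE 0.15, adjusted p = 0.000153), 5/6 Nx-HPi-Hp (log2 fold change 1.18, SE 0.16, adjusted p = 0.00414) and 5/6 Nx-LPi-Lp (log2 fold change 1.29, SE 0.15, adjusted p = 0.00141), and these calls held with every library left out in turn.

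Map4k2, of the same family, moved the other way. It measured 97.5, 85.2, 93.1 and 105 CPM in Sham, 62.7, 33.8, 56.2 and 42.1 in 5/6 Nx-HPi-Lp, 88.7, 122, 106 and 95.1 in 5/6 Nx-HPi-Hp and 83.0, 94.4, 89.7 and 90.7 in 5/6 Nx-LPi-Lp. All 4 values of 5/6 Nx-HPi-Lp were below the other 12. The fall reached 2-fold against 5/6 Nx-HPi-Hp (log2 fold change -1.08, SE 0.22, adjusted p = 0.0144), and under 2-fold it passed by adjusted p against Sham (log2 fold change -0.91, adjusted p = 0.00336) and 5/6 Nx-LPi-Lp (log2 fold change -0.88, adjusted p = 0.0122). The call was lost without 5/6 Nx-HPi-Lp replicates 2 or 4 or 5/6 Nx-HPi-Hp replicate 2 (log2 fold change -1.01 to -0.93, adjusted p 0.0311 to 0.0539). Map4k1 (HPK1), a kinase of blood cells, measured 2.31, 2.14, 1.53 and 2.61 CPM in Sham and 4.41, 9.44, 6.36 and 5.48 in 5/6 Nx-HPi-Lp and was called higher (log2 fold change 1.63, SE 0.30, adjusted p = 0.00202).

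**Figure D4:**
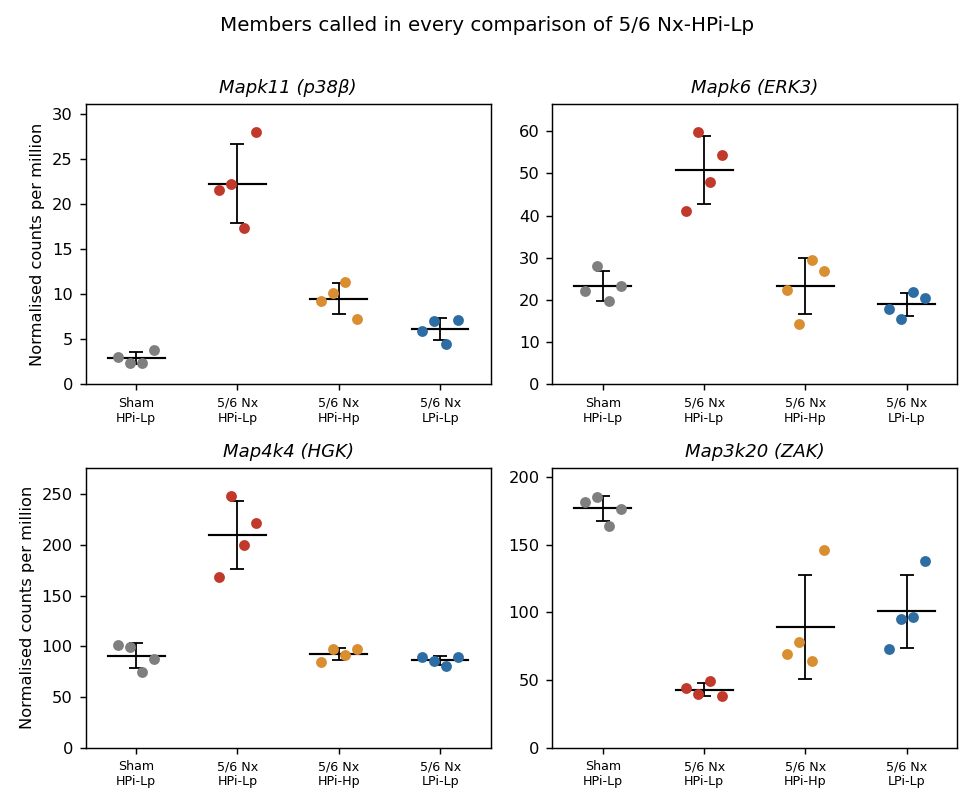
Normalised CPM (y axis) of Mapk11, Mapk6, Map4k4 and Map3k20 in each library of the 4 groups (x axis), with the mean ± SD as a line and bar. The 5/6 Nx-HPi-Lp points lie above all others for the first 3 genes and below all others for Map3k20.

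Of the MAP3Ks, Map3k20 had the largest fall. It measured 182, 185, 164 and 176 CPM in Sham, 44.1, 39.8, 49.0 and 38.4 in 5/6 Nx-HPi-Lp, 69.4, 78.0, 64.0 and 146 in 5/6 Nx-HPi-Hp and 72.9, 95.2, 96.9 and 138 in 5/6 Nx-LPi-Lp. All 4 values of 5/6 Nx-HPi-Lp were below the other 12, and all Sham values were above all nephrectomized values. It was lower than in Sham (log2 fold change -1.99, SE 0.11, adjusted p = 1.22e-05), 5/6 Nx-HPi-Hp (log2 fold change -1.05, SE 0.25, adjusted p = 0.0259) and 5/6 Nx-LPi-Lp (log2 fold change -1.23, SE 0.19, adjusted p = 0.00356).

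The highest Map3k20 values of the nephrectomized groups were in 5/6 Nx-HPi-Hp replicate 4 and 5/6 Nx-LPi-Lp replicate 4. These were also the libraries with the most smooth muscle marker RNA in their groups (23531 and 17999 CPM), and the 5/6 Nx-HPi-Lp libraries had the least of all. The part of that shift in the Map3k20 values was not tested. The call against 5/6 Nx-HPi-Hp was lost without 5/6 Nx-HPi-Lp replicates 2 or 4 or 5/6 Nx-HPi-Hp replicates 2 or 4 (log2 fold change -1.13 to -0.73, adjusted p 0.0187 to 0.0854), and without both neuron-rich libraries (log2 fold change -1.01, adjusted p = 0.130). The calls against Sham and 5/6 Nx-LPi-Lp held with every library left out in turn.

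The mixed-lineage kinases activate JNK in neurons and other cells. Map3k10 (MLK2) measured 79.0, 76.8, 71.1 and 75.4 CPM in Sham, 39.0, 43.7, 40.4 and 31.7 in 5/6 Nx-HPi-Lp, 65.7, 81.0, 70.5 and 99.0 in 5/6 Nx-HPi-Hp and 51.0, 53.3, 68.4 and 61.6 in 5/6 Nx-LPi-Lp, and the 5/6 Nx-HPi-Lp values were below all others. It was called lower against 5/6 Nx-HPi-Hp (log2 fold change -1.02, SE 0.17, adjusted p = 0.00722), a call lost without 5/6 Nx-HPi-Lp replicate 4 or 5/6 Nx-HPi-Hp replicate 4 (log2 fold change -0.94 to -0.91, adjusted p 0.0120 to 0.0304) and without both neuron-rich libraries (log2 fold change -0.91, adjusted p = 0.0506). The falls from Sham (log2 fold change -0.91, adjusted p = 0.000212) and 5/6 Nx-LPi-Lp (log2 fold change -0.59, adjusted p = 0.0243) were under 2-fold, and 14.8% of the exon bases overlap Ttc9b on the opposite strand.

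Map3k9 (MLK1) was near the detection limit. It measured 0, 0.262, 0.496 and 0.158 CPM in Sham (0, 6, 11 and 4 reads), 2.14, 0.576, 0.817 and 2.45 in 5/6 Nx-HPi-Lp, 0.430, 0, 0.0750 and 0.437 in 5/6 Nx-HPi-Hp and 2.60, 0.816, 2.99 and 0.381 in 5/6 Nx-LPi-Lp. All 5/6 Nx-HPi-Lp values exceeded those of Sham, and replicates 1 and 4 were the highest of that group. The gene passed the filter on low counts, which asks for enough reads in at least 4 of the 8 libraries compared, only through the 5/6 Nx-HPi-Lp libraries (4 of these and 1 of Sham were over it). It was called higher than in Sham (log2 fold change 2.74, SE 0.87, adjusted p = 0.0292), but the call was lost without Sham replicates 2 or 4 or 5/6 Nx-HPi-Lp replicates 1 or 4 (log2 fold change 2.40 to 2.80, adjusted p 0.0532 to 0.0887) and without both neuron-rich libraries (log2 fold change 1.67, adjusted p = 0.197). It was not tested against 5/6 Nx-HPi-Hp, and the difference from 5/6 Nx-LPi-Lp did not pass (log2 fold change -0.21, adjusted p = 0.863).

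Map3k6 (ASK2) and Map3k15 (ASK3), stress-responsive MAP3Ks of the ASK family, were called higher than in Sham. Map3k6 measured 27.4, 45.8, 76.8 and 47.5 CPM in Sham and 203, 78.8, 119 and 113 in 5/6 Nx-HPi-Lp (log2 fold change 1.44, SE 0.34, adjusted p = 0.00767). Map3k15 measured 0.925, 0.699, 0.451 and 0.633 CPM in Sham and 1.70, 3.44, 1.24 and 2.64 in 5/6 Nx-HPi-Lp (log2 fold change 1.78, SE 0.44, adjusted p = 0.00936), and 13.9% of its exon bases overlap Pdha1 on the opposite strand. Neither overlapped between these groups. The other MAP3Ks that passed by adjusted p alone changed by under 2-fold. Map3k14 (NIK), the kinase of the non-canonical NF-kB pathway, was higher than in Sham (log2 fold change 0.89, adjusted p = 0.00114) and 5/6 Nx-LPi-Lp (log2 fold change 0.73, adjusted p = 0.0178), and Map3k11 was higher (0.56) and Map3k1, Map3k2, Map3k3 and Map3k4 lower (-0.46, -0.57, -0.38 and -0.52) than in Sham.

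The phosphatases are given by the MAP kinases they act on. Of the ERK-directed MKPs, Dusp6, the cytoplasmic ERK phosphatase that ERK signalling induces, measured 35.6, 20.9, 29.1 and 29.6 CPM in Sham, 58.1, 64.5, 58.9 and 59.6 in 5/6 Nx-HPi-Lp, 35.0, 29.0, 27.2 and 21.7 in 5/6 Nx-HPi-Hp and 65.9, 24.0, 42.8 and 31.9 in 5/6 Nx-LPi-Lp. The 5/6 Nx-HPi-Lp values were above all of Sham and 5/6 Nx-HPi-Hp and below the highest of 5/6 Nx-LPi-Lp. It was higher than in Sham (log2 fold change 1.12, SE 0.15, adjusted p = 0.000346) and 5/6 Nx-HPi-Hp (log2 fold change 1.10, SE 0.16, adjusted p = 0.00497) but not past the test against 5/6 Nx-LPi-Lp (log2 fold change 0.55, SE 0.27, adjusted p = 0.175). Its fold was under 2 against Sham without Sham replicate 2 (log2 fold change 0.97, adjusted p = 0.000732) and against 5/6 Nx-HPi-Hp without 5/6 Nx-HPi-Hp replicate 4 (log2 fold change 0.98, adjusted p = 0.00867). Dusp7 did not pass in any of the 3 comparisons.

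The MKPs directed at JNK and p38, Dusp8, Dusp10 and Dusp16, were each lower than in Sham by adjusted p, as were 20.2% of all genes, and Dusp8 was called, as were 7.18% of all genes. Dusp8 measured 63.1, 102, 59.4 and 68.8 CPM in Sham, 21.4, 19.0, 33.0 and 19.0 in 5/6 Nx-HPi-Lp, 35.1, 51.8, 30.4 and 80.3 in 5/6 Nx-HPi-Hp and 24.0, 47.8, 43.0 and 48.5 in 5/6 Nx-LPi-Lp. Values in 5/6 Nx-HPi-Lp were all below those of Sham and overlapped those of the other nephrectomized groups. It was called lower against Sham (log2 fold change -1.61, SE 0.23, adjusted p = 0.000439) and 5/6 Nx-HPi-Hp (log2 fold change -1.09, SE 0.31, adjusted p = 0.0462), and the fall from 5/6 Nx-LPi-Lp missed the test (log2 fold change -0.81, adjusted p = 0.0501). The second call was lost without 5/6 Nx-HPi-Lp replicates 1, 2 or 4 or 5/6 Nx-HPi-Hp replicates 2 or 4 (log2 fold change -1.08 to -0.77, adjusted p 0.0749 to 0.129) and without both neuron-rich libraries (log2 fold change -0.93, adjusted p = 0.216). Dusp10 measured 9.15 ± 0.652 CPM (SD, n = 4) against 18.4 ± 2.08 in Sham, on values scaled over all 16 libraries. In the edgeR fits, which scale the 8 libraries compared, Dusp10 fell by under 2-fold against Sham (log2 fold change -0.96, adjusted p = 0.000486) and 5/6 Nx-LPi-Lp (log2 fold change -0.78, adjusted p = 0.00743). Dusp16 also fell by under 2-fold from Sham (log2 fold change -0.65, adjusted p = 0.0248).

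The nuclear MKPs Dusp1, Dusp2, Dusp4 and Dusp5 are immediate-early or early genes, and all but Dusp5 act on several MAP kinases. Dusp1 (MKP-1), at 108 ± 21.6 FPKM (SD, n = 4) the most strongly expressed of the 70 genes in Sham, measured 324, 292, 231 and 372 CPM in Sham, 162, 205, 146 and 199.7 in 5/6 Nx-HPi-Lp, 316, 555, 223 and 366 in 5/6 Nx-HPi-Hp and 245, 192, 154 and 259 in 5/6 Nx-LPi-Lp. Values in 5/6 Nx-HPi-Lp were below all of Sham and 5/6 Nx-HPi-Hp. It was called lower against 5/6 Nx-HPi-Hp (log2 fold change -1.03, SE 0.27, adjusted p = 0.0367), a call lost without 5/6 Nx-HPi-Lp replicates 1, 2, 3 or 4 or 5/6 Nx-HPi-Hp replicates 1 or 2 (log2 fold change -1.11 to -0.77, adjusted p 0.0553 to 0.0874) and without both neuron-rich libraries (log2 fold change -1.06, adjusted p = 0.147). Against Sham it was lower by under 2-fold (log2 fold change -0.72, adjusted p = 0.00718).

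Dusp4 (MKP-2) measured 4.89, 6.16, 7.67 and 6.05 CPM in Sham, 13.7, 22.6, 18.4 and 25.7 in 5/6 Nx-HPi-Lp, 16.5, 4.33, 15.1 and 6.62 in 5/6 Nx-HPi-Hp and 77.9, 18.1, 50.1 and 20.4 in 5/6 Nx-LPi-Lp. The highest values were in 5/6 Nx-LPi-Lp replicates 1 and 3, and the 5/6 Nx-HPi-Lp values were all above Sham. It was called higher than in Sham (log2 fold change 1.75, SE 0.22, adjusted p = 0.000222), and the differences from 5/6 Nx-HPi-Hp (log2 fold change 0.92, adjusted p = 0.147) and 5/6 Nx-LPi-Lp (log2 fold change -1.05, adjusted p = 0.123) did not pass. Dusp5, which acts on ERK in the nucleus, measured 5.97, 3.85, 6.00 and 7.27 CPM in Sham and 6.11, 13.5, 15.0 and 11.9 in 5/6 Nx-HPi-Lp, with overlap (log2 fold change 1.06, SE 0.29, adjusted p = 0.0157). That call was lost without Sham replicate 2 or 5/6 Nx-HPi-Lp replicates 2 or 3 (log2 fold change 0.89 to 1.00, adjusted p 0.0333 to 0.0521), and 22.1% of the exon bases overlap an antisense gene.

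Dusp2 (PAC-1), known from blood cells, measured 1.04, 2.23, 1.13 and 2.17 CPM in Sham, 1.13, 4.03, 2.91 and 4.19 in 5/6 Nx-HPi-Lp, 3.44, 2.61, 2.17 and 1.42 in 5/6 Nx-HPi-Hp and 1.46, 0.941, 0.874 and 0.809 in 5/6 Nx-LPi-Lp. The groups overlapped. It was called higher against 5/6 Nx-LPi-Lp (log2 fold change 1.59, SE 0.47, adjusted p = 0.0423), a call lost without 5/6 Nx-HPi-Lp replicates 2, 3 or 4 or 5/6 Nx-LPi-Lp replicates 1, 2, 3 or 4 (log2 fold change 1.41 to 1.80, adjusted p 0.0551 to 0.110). The differences from Sham (log2 fold change 0.95, adjusted p = 0.120) and 5/6 Nx-HPi-Hp (log2 fold change 0.35, adjusted p = 0.652) did not pass.

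**Figure D5:**
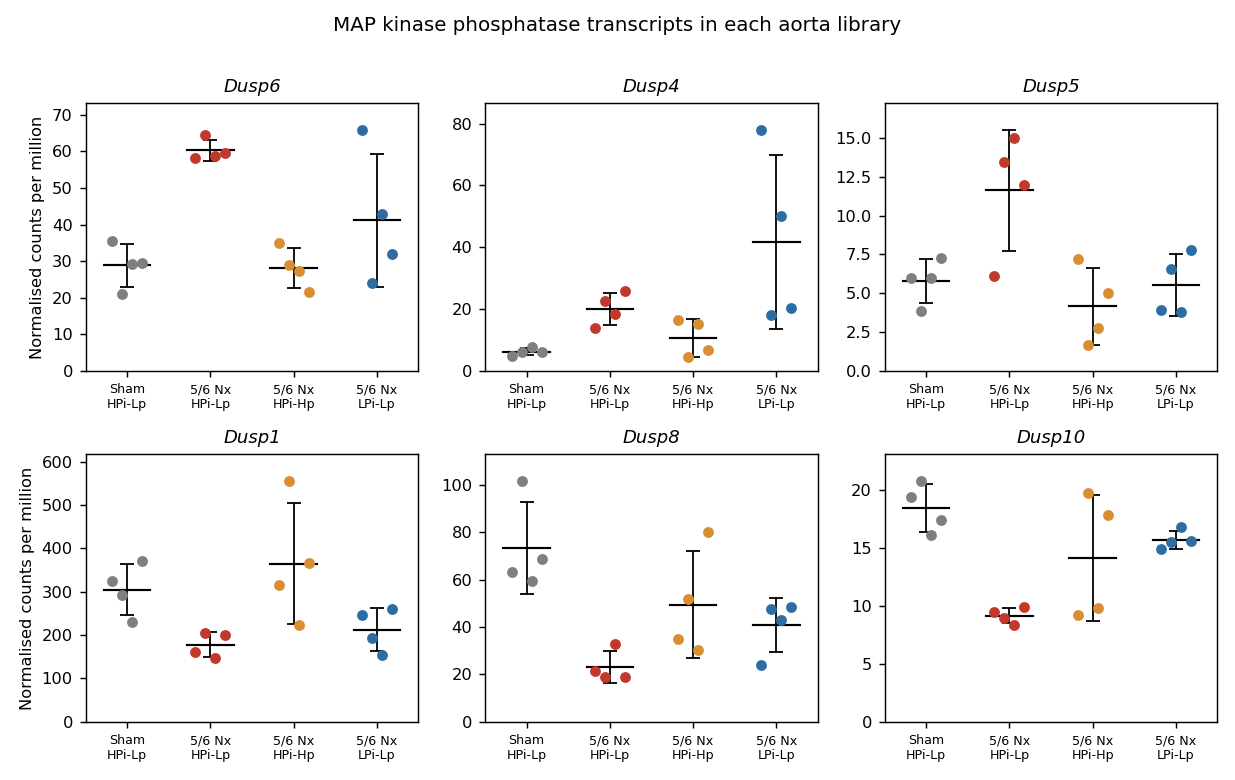
Normalised CPM (y axis) of Dusp6, Dusp4, Dusp5, Dusp1, Dusp8 and Dusp10 in each library of the 4 groups (x axis), with the mean ± SD as a line and bar. Dusp6 and Dusp4 sit higher and Dusp8, Dusp10 and Dusp1 lower in 5/6 Nx-HPi-Lp than in Sham, and Dusp5 overlaps.

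The atypical DUSPs, many of which have substrates other than MAP kinases, gave 3 calls higher and 1 lower against Sham of 12 tested. Over all genes tested, 15.0% were called higher and 7.18% lower. Dusp18 measured 2.20, 1.97, 2.03 and 3.04 CPM in Sham, 7.25, 16.2, 9.25 and 16.1 in 5/6 Nx-HPi-Lp, 7.31, 4.57, 5.77 and 4.26 in 5/6 Nx-HPi-Hp and 9.32, 12.3, 5.17 and 4.19 in 5/6 Nx-LPi-Lp. All nephrectomized values were above all Sham values, and those of the nephrectomized groups overlapped. It was higher than in Sham (log2 fold change 2.45, SE 0.31, adjusted p = 0.000260) and 5/6 Nx-HPi-Hp (log2 fold change 1.16, SE 0.32, adjusted p = 0.0428) but not past the test against 5/6 Nx-LPi-Lp (log2 fold change 0.66, adjusted p = 0.262). The call against 5/6 Nx-HPi-Hp was lost without 5/6 Nx-HPi-Lp replicates 2, 3 or 4 or 5/6 Nx-HPi-Hp replicates 1, 2, 3 or 4 (log2 fold change 0.99 to 1.32, adjusted p 0.0541 to 0.128) and without both neuron-rich libraries (log2 fold change 1.22, adjusted p = 0.0735). Dusp22, a phosphatase that modulates JNK signalling, measured 9.29, 10.8, 10.7 and 8.66 CPM in Sham and 25.3, 19.3, 18.1 and 26.9 in 5/6 Nx-HPi-Lp (log2 fold change 1.24, SE 0.17, adjusted p = 0.000360), and without both neuron-rich libraries its fold was under 2 (log2 fold change 0.99, adjusted p = 0.00111).

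Dusp26, a phosphatase of neural tissue, measured 0.539, 0.524, 0.992 and 1.15 CPM in Sham, 19.2, 0.890, 3.51 and 10.4 in 5/6 Nx-HPi-Lp, 1.61, 2.61, 3.37 and 2.90 in 5/6 Nx-HPi-Hp and 2.00, 1.51, 1.24 and 3.28 in 5/6 Nx-LPi-Lp. As for Mapk10, replicates 1 and 4 of 5/6 Nx-HPi-Lp were the highest of all libraries, and replicate 2 lay within the Sham range. It was called higher than in Sham (log2 fold change 3.44, SE 0.83, adjusted p = 0.00818), a call lost without both neuron-rich libraries (log2 fold change 1.51, adjusted p = 0.0782). The differences from 5/6 Nx-HPi-Hp (log2 fold change 1.69, adjusted p = 0.160) and 5/6 Nx-LPi-Lp (log2 fold change 2.05, adjusted p = 0.0922) did not pass. Dusp27, a gene of striated muscle, measured 5.93, 7.52, 5.55 and 4.98 CPM in Sham, 2.27, 2.15, 4.04 and 1.68 in 5/6 Nx-HPi-Lp, 3.71, 2.61, 0.975 and 5.30 in 5/6 Nx-HPi-Hp and 2.27, 6.90, 3.35 and 5.33 in 5/6 Nx-LPi-Lp. The 5/6 Nx-HPi-Lp values were below all of Sham (log2 fold change -1.18, SE 0.31, adjusted p = 0.0121) and overlapped those of 5/6 Nx-HPi-Hp (log2 fold change -0.30, adjusted p = 0.727) and 5/6 Nx-LPi-Lp (log2 fold change -0.80, adjusted p = 0.210). That call too was lost without both neuron-rich libraries, with only replicates 2 and 3 of 5/6 Nx-HPi-Lp kept (log2 fold change -0.90, adjusted p = 0.0523). By adjusted p alone, Dusp3, Dusp14 and Dusp28 were lower (-0.73, -0.53 and -0.80) and Dusp23 higher (0.79) on the log2 scale than in Sham.

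The other nephrectomized groups were also set against the same Sham libraries. In 5/6 Nx-HPi-Hp, 6 of 63 genes tested were called higher (9.52%, against 9.41% of all 15882 genes tested), and in 5/6 Nx-LPi-Lp 8 of 64 (12.5%, against 8.79% of all 16071 genes tested), with 0 called lower in either (0%, against 2.75% and 2.08% of all genes). By adjusted p alone 11 were higher and 6 lower in 5/6 Nx-HPi-Hp (17.5% and 9.52%, against 17.5% and 13.9%), and 12 higher and 7 lower in 5/6 Nx-LPi-Lp (18.8% and 10.9%, against 17.3% and 14.5%). Mapk11, Mapk12, Mapkapk3, Dusp18 and Dusp26 were called in both. In both groups all 6 adipocyte markers, 4 of the 6 mast cell markers and 3 of the 5 cardiac muscle markers were also called higher than in Sham, and the adipocyte markers summed to 487 to 1236 CPM in Sham, 1059 to 6439 in 5/6 Nx-HPi-Hp and 2536 to 7025 in 5/6 Nx-LPi-Lp. Their part in the values that follow was not tested. Mapk11 was higher by 1.79 on the log2 scale in 5/6 Nx-HPi-Hp (adjusted p = 0.00887) and 1.19 in 5/6 Nx-LPi-Lp (adjusted p = 0.00584). The values for Mapk12 were 1.71 (adjusted p = 0.0102) and 1.06 (adjusted p = 0.00949), and its fold in 5/6 Nx-LPi-Lp was under 2 without Sham replicate 2 or 5/6 Nx-LPi-Lp replicate 2 (log2 fold change 0.87 to 0.93, adjusted p 0.0181 to 0.0321). Mapkapk3 was higher by 1.25 (adjusted p = 0.00987) and 1.42 (adjusted p = 0.00292), and by 1.22 in 5/6 Nx-HPi-Lp. Dusp18 rose by 1.32 (adjusted p = 0.0110) and 1.84 (adjusted p = 0.00557).

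Dusp26 was higher by 1.77 in 5/6 Nx-HPi-Hp (adjusted p = 0.0132) and 1.42 in 5/6 Nx-LPi-Lp (adjusted p = 0.0248), the latter call lost without Sham replicates 1 or 2 or 5/6 Nx-LPi-Lp replicate 4 (log2 fold change 1.08 to 1.26, adjusted p 0.0609 to 0.0764). Dusp15 was called higher in 5/6 Nx-HPi-Hp (log2 fold change 2.83, SE 0.40, adjusted p = 0.00887), at 2.31, 2.69, 3.45 and 1.80 CPM against 0.539, 0.262, 0.406 and 0.277 in Sham, where its 14, 6, 9 and 7 reads were over the filter on low counts in 1 library. Dusp4 (log2 fold change 2.84, SE 0.45, adjusted p = 0.00344), Mapk10 (log2 fold change 4.32, SE 0.95, adjusted p = 0.00922) and Map3k9 (log2 fold change 2.97, SE 0.86, adjusted p = 0.0262) were called in 5/6 Nx-LPi-Lp, where Mapk10 had 10, 77, 12 and 27 reads against 1, 2, 6 and 0 in Sham and Map3k9 48, 13, 41 and 8 against 0, 6, 11 and 4, and the Map3k9 call was lost without Sham replicates 1, 2 or 4 or 5/6 Nx-LPi-Lp replicates 1 or 3 (log2 fold change 2.53 to 3.04, adjusted p 0.0502 to 0.0697). Dusp15, Mapk10 and Map3k9 could not have been tested without their reads in the group where they were high, so these 3 calls and the counts of 6 and 8 draw on that selection. The count of 6 in 5/6 Nx-HPi-Hp became 11 without its replicate 4. Calls over all genes, 1495 higher and 437 lower in the full fit, then became 3161 in either direction. The count of 8 in 5/6 Nx-LPi-Lp became 5 without Sham replicate 2. Calls over all genes, 1413 higher and 335 lower in the full fit, then became 1391 in either direction. With 5/6 Nx-HPi-Hp set against 5/6 Nx-LPi-Lp, 0 of 63 genes were called by edgeR (0% of all 15850 genes), 8 had an unadjusted p under 0.05 (12.7%, against 8.96% of all genes), and DESeq2 called 1, of 78 over all genes.

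Of 106 genes that act with these kinases and phosphatases (RAF and other kinases, RAS and adaptors, receptors, scaffolds, MAPK-activated kinases, other MAPK phosphatases and transcription factors), 15 of 100 tested were called higher and 8 lower than in Sham, against 15.0% and 7.18% of all genes. Against 5/6 Nx-HPi-Hp 10 and 2 of 102 were called higher and lower (5.01% and 3.11% of all genes), and against 5/6 Nx-LPi-Lp 11 and 1 of 102 (7.90% and 3.98%). Their median log2 fold changes were -0.01, 0.22 and 0.20. Of the 22 transcription factor genes among them, 5 were called higher and 3 lower than in Sham, 8 and 8 passed by adjusted p alone, and the median log2 fold change was -0.02. The counts called were 4 and 1 against 5/6 Nx-HPi-Hp and 5 and 0 against 5/6 Nx-LPi-Lp. In all 3 comparisons 6 of the 106 were called. Of all 15676 genes tested in all 3, 3.96% were called higher in each and 1.57% lower in each. The immediate-early or growth-response genes Myc (log2 fold changes 2.51, 1.83 and 2.19 in the comparisons with Sham, with 5/6 Nx-HPi-Hp and with 5/6 Nx-LPi-Lp), Egr2 (2.23, 1.59 and 2.38) and Fosl1 (1.30, 1.45 and 1.60) were higher, as were the ERK-responsive ETS factor Elk3 (1.01, 1.09 and 1.28) and the kinase Pak1 (1.17, 1.25 and 1.70). The RAS-family activator Rasgrp2 was lower (-1.07, -1.72 and -1.16). Myc averaged 4.73 ± 0.984 CPM (SD, n = 4) in Sham, 25.9 ± 7.39 in 5/6 Nx-HPi-Lp, 7.30 ± 1.95 in 5/6 Nx-HPi-Hp and 5.72 ± 1.19 in 5/6 Nx-LPi-Lp.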

How the data were processed

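Reads from poly(A) mRNA of 16 aortas were aligned by the authors to mm10 with HISAT2 and counted per gene with featureCounts 1.5.0-p3, and the deposited counts are the unnormalised result. The authors also deposited FPKM values, scaled by gene length and library size. Whether the counting used strand is not given in the sources used here, and reads of overlapping genes may be shared. The counts were tested with edgeR 4.0.16 in R 4.3.3 (filterByExpr, TMM scaling, quasi-likelihood F test) over the 8 libraries of each pair of groups, with Benjamini-Hochberg adjustment over all genes tested. CPM values are scaled by TMM over all 16 libraries. Each mouse gave 1 library, and no replicates were copies of each other (the lowest chi-square per gene over 24 pairs was 20.4). The code was tested on simulated data.

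The genes and lists were chosen with earlier results of these data known. Every library is printed for the ERK, JNK and p38 kinases, genes called in at least 2 of the 3 comparisons of 5/6 Nx-HPi-Lp, and the 3 highest and 3 lowest called log2 fold changes of each comparison. The values of 1 gene are not reported here. Other called genes are named with fold changes, and here also with their CPM. Genes named with an adjusted p but under 2-fold, and those of the other comparisons, were chosen after their values were seen. Exon overlaps come from GENCODE vM21, promoters from RefSeq. Alternatives used limma 3.58.1 on log2(FPKM + 1) or log2(FPKM + 0.1) (mean FPKM above 0.5), DESeq2 1.42.0, other scalings, count filters and sample choices. Leaving out both neuron-rich libraries was added after seeing the data. It keeps only replicates 2 and 3 of 5/6 Nx-HPi-Lp, the libraries of that group with the most counts. No other pair of libraries was left out.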

Additional observations from a re-analysis of the deposited data

Results flagged for a closer look

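Map3k20 in 5/6 Nx-HPi-Hp stood apart in 1 library. Replicate 4 measured 146 CPM, against 78.0 in the nearest library of the group, and the gap took 0.831 of the group's range, just above Dixon's critical value for 4 samples. Of 76 groups of values examined (19 genes in 4 groups), this was the 1 past that value, and chance flags about 1 in 20. The same library had the most smooth muscle marker RNA of its group (23531 CPM, against 6680.4 to 11231 in the others), and the part of that difference in the Map3k20 value was not tested. Without it, Map3k20 in 5/6 Nx-HPi-Lp differed from 5/6 Nx-HPi-Hp by -0.73 on the log2 scale (adjusted p = 0.0187 by edgeR), under 2-fold.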

How the results depend on the processing

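Of the 48 calls named in the report, those of Mapk11, Mapk6, Map4k4 and Map3k20 against Sham and 5/6 Nx-LPi-Lp, of Map4k4 against 5/6 Nx-HPi-Hp, of Dusp8, Dusp18, Map3k6 and Dusp4 against Sham, of Mapk11 in 5/6 Nx-HPi-Hp against Sham and of Mapkapk3 and Dusp4 in 5/6 Nx-LPi-Lp against Sham held under each of 12 other settings and with each of 8 libraries left out in turn. Counts are given as higher and lower in 5/6 Nx-HPi-Lp. Against Sham (15 and 4 called) they were 23 and 18 by adjusted p alone, 13 and 7 with total-count scaling, 8 and 2 with limma on log2(FPKM + 1) and 7 and 2 with limma without the filter on low values. Against 5/6 Nx-HPi-Hp (5 and 5) they were 5 and 2 with total-count scaling, 9 higher with DESeq2, 1 lower with limma on log2(FPKM + 1), 2 lower on log2(FPKM + 0.1), 3 and 1 without the filter on low values and 1 lower without both neuron-rich libraries. Against 5/6 Nx-LPi-Lp (4 and 1), DESeq2 called 8 higher and adjusted p alone 5 lower. Against Sham, 17 genes in 5/6 Nx-HPi-Hp (6 called) and 19 in 5/6 Nx-LPi-Lp (8) passed by adjusted p alone. In the same order, limma on log2(FPKM + 1) called 2 in each with the filter and 1 and 2 without, and on log2(FPKM + 0.1) with the filter 5 and 6. Between the latter groups (0 called), DESeq2 called 1. The Mapk11 share of the p38 sum (17.6%) was 13.2% with counts not divided by length. With 1 library left out the counts ran from 13 to 17 and 3 to 5 against Sham, 3 to 6 and 0 to 5 against 5/6 Nx-HPi-Hp, 3 to 6 and 1 to 2 against 5/6 Nx-LPi-Lp, 6 to 11 and 5 to 9 for the other groups against Sham and 0 to 0 between them, and the share from 16.5% to 18.4%. The cause of these shifts was not tested. Total-count scaling moved the median of all genes against Sham by -0.14 on the log2 scale.

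Same-numbered mice are different animals. The deviations of same-numbered libraries correlated by -0.20 to 0.41 over 24 pairs, 4 of them over 0.1, so the numbers do not pair the samples. With the replicate number as a block, 2 genes were called higher and 0 lower against 5/6 Nx-HPi-Hp (Mapk11 and Mapk6 missed the test, adjusted p = 0.0646 and 0.0643), and 1 with 5/6 Nx-HPi-Hp set against 5/6 Nx-LPi-Lp. Over all genes, the block fits called 371 and 10 in either direction. Without the block the first called 811 higher and 504 lower, and the second 0.

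Of 3017 recomputed fold changes, 34 turned sign, in 11 results, and 0 of these were called in either fit. With 1 library left out, the log2 fold change of Mapk9 against Sham ran from -0.025 to 0.10, of Mapk13 against 5/6 Nx-HPi-Hp from -0.25 to 0.049, of Dusp27 from -0.63 to 0.057, of Mapkapk3 from -0.19 to 0.19 and of Map3k9 against 5/6 Nx-LPi-Lp from -0.52 to 0.24. Against Sham, total-count scaling gave -0.12 for Mapk9, no count filter -0.047, thinning to the lowest total -0.0058, leaving out both neuron-rich libraries -0.12 and -0.019 for Mapk3, and all 16 libraries in 1 fit 0.0038 for Mapk14. Against 5/6 Nx-HPi-Hp, leaving out the neuron-rich libraries gave -0.0037 for Mapk3, -0.29 for Mapk10, 0.14 for Mapk13, -0.26 for Dusp26 and 0.030 for Mapkapk3, and thinning 0.027 for Mapk13. Mapkapk3 there was 0.061 with total-count scaling, 0.011 with limma on log2(FPKM + 1), with or without the filter, 0.019 with a pseudocount of 0.1, 0.0075 in 1 fit of all libraries, 0.019 with the replicate block and 0.012 without mitochondrial genes. Against 5/6 Nx-LPi-Lp, Mapk9 was -0.025 without the neuron-rich libraries. Depth limits genes with few reads, such as Mapk10 (0 to 6 reads in Sham) and Map3k9 (0 to 11).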

Other observations

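The ERK activators Map2k1 (MEK1) and Map2k2 (MEK2) differed from Sham in opposite directions in the other nephrectomized groups, by under 2-fold, a pattern picked out after its values were seen. Map2k2 measured 134, 127, 127 and 138 CPM in Sham, 180.3, 192, 197 and 191 in 5/6 Nx-HPi-Hp and 170.1, 179.6, 148 and 153 in 5/6 Nx-LPi-Lp, so that all values of both groups lay above Sham (log2 fold changes 0.60 and 0.40, adjusted p = 0.00987 and 0.0164 by edgeR). Map2k1 measured 60.7, 65.0, 61.8 and 64.3 CPM in Sham, 42.4, 35.5, 36.9 and 49.7 in 5/6 Nx-HPi-Hp and 52.9, 33.9, 44.6 and 47.9 in 5/6 Nx-LPi-Lp, all below Sham (log2 fold changes -0.55 and -0.40, adjusted p = 0.0125 and 0.0354). In 5/6 Nx-HPi-Lp, where neither gene passed against Sham, Map2k1 measured 60.7, 47.3, 51.9 and 53.8 CPM and Map2k2 119, 138, 129 and 119 CPM.

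The MAP3K genes Map3k1, Map3k2 and Map3k3 (MEKK1, MEKK2 and MEKK3) were lower than in the shared Sham libraries in all 3 nephrectomized groups by adjusted p. In the order 5/6 Nx-HPi-Lp, 5/6 Nx-HPi-Hp and, last, 5/6 Nx-LPi-Lp, the log2 fold changes were -0.46, -0.53 and -0.35 for Map3k1, -0.57, -0.64 and -0.37 for Map3k2 and -0.38, -0.56 and -0.57 for Map3k3. Map3k11 (MLK3) was higher in all 3, by 0.56, 0.71 and 0.38. Each of these differences was under 2-fold. In the same order, 20.2%, 13.9% and 14.5% of all genes tested were lower by adjusted p, and 22.7%, 17.5% and 17.3% higher. The share of all genes that passed in all 3 was not computed. These genes were picked out after their values were seen.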
